A study of Mus musculus with 24 samples.

Results

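The transcripts described here encode the subunits of the 3 nuclear RNA polymerases and of Mediator, the complex that links RNA polymerase II to gene-specific activators. They were chosen by name: every gene of the deposited table whose symbol begins with Polr1, Polr2 or Polr3, or with Med followed by a digit. The rule gave 58 of 23235 genes, of which 28 were polymerase and 30 Mediator genes. A mean of at least 1 FPKM (fragments per kilobase of transcript, relative to the mapped fragments of the library) in at least 1 group was required for a test, and 56 of the 58 members passed it. Polr2a, which encodes the largest subunit of RNA polymerase II, had a highest group mean of 0.81 FPKM and was not tested. Med12l, a paralog of the kinase-module subunit Med12, had a highest group mean of 0.265 FPKM and was not tested.

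The series holds RNA-seq of mouse oocytes and zygotes of 3 genotypes, Cnot6l-/-, Btg4-/- and wild type (WT), all on the C57BL/6 background from animals at postnatal day 21. Each genotype has 2 libraries at each of 4 stages, which makes 12 groups and 24 libraries. Germinal vesicle (GV) oocytes, arrested in meiotic prophase, were taken 48 h after PMSG. Metaphase I (MI) and metaphase II (MII) oocytes had been cultured for 8 h and 16 h, and zygotes were collected 24 h after hCG. CNOT6L is a catalytic deadenylase of the CCR4-NOT complex, which shortens poly(A) tails, and BTG4 is an adaptor that brings this complex to maternal messenger RNA. The comparisons bear on how far each gene is needed for the loss of maternal transcripts during meiotic maturation. The labels do not say which part of either gene was removed, or whether the 2 libraries of a group came from separate animals, so p-values measure the spread between these libraries, which may be technical.

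RNA polymerase I makes the large ribosomal RNA precursor, RNA polymerase II makes messenger RNA, and RNA polymerase III makes transfer RNA and other small RNA. Each has a catalytic pair of large subunits and its own smaller subunits, and some subunits are shared. Mediator is built of head, middle and tail modules around a backbone, with a kinase module that comes and goes. A fully grown oocyte stores messenger RNA and is transcriptionally silent from late growth until the zygotic genome is activated. During maturation many stored transcripts are deadenylated and lost, while others gain a longer tail through cytoplasmic polyadenylation elements near their 3′ end.

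Cnot6l had 7.26 and 3.4 FPKM in Cnot6l-/- MII oocytes, against 23.6 and 20.8 FPKM in WT MII oocytes. It was lower in Cnot6l-/- at GV, MI and MII (log2 differences of -2.84, -1.81 and -1.94), and the zygote difference of -1.32 was not called (limma adjusted p = 0.272). Btg4 had 1494 and 1111 FPKM in MII oocytes labelled Btg4-/-, against 957 and 1114 FPKM in WT MII oocytes. The Btg4 transcript did not mark these libraries: its log2 differences lay between -0.18 and 0.57 over the 4 stages with no call, and they are named by their label throughout. Summed FPKM ran from 49930 to 545784 per library and fell with stage, so FPKM do not add up to the same total in each library. The polymerase and Mediator transcripts made up 1.23% to 2.04% of that sum. All 10 oocyte markers reached 1 FPKM, against 5 of 9 cumulus and granulosa markers, whose sum stayed between 1.56 and 28.3 FPKM per library. Sperm markers summed to between 0.26 and 32.7 FPKM and blood markers to between 0.49 and 3.56 FPKM, with 1 and 2 of their genes at 0 in every library. The cumulus and sperm sums were highest at GV in each genotype, as were the members' own sums. At MII the cumulus sum ran from 8.07 to 13.3 FPKM in Cnot6l-/- oocytes, from 3.58 to 6.03 FPKM in those labelled Btg4-/-, and from 5.66 to 5.9 FPKM in WT. The part of these markers in the results was not tested.

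Because FPKM of most genes were lower at MI and MII than at GV, each comparison is given with the median over all 10884 genes tested. Counts are also given after median-ratio scaling, which sets the typical gene of a set of 3677 to about the same level in all libraries. Scaled changes are therefore relative to that set and not to all genes tested. The scaled median over all genes tested was still -0.37 for WT MII minus GV and 0.29 for Cnot6l-/- minus WT at MII. In these bulk samples fewer cells and less RNA per cell cannot be told apart. The labels call the series total RNA-seq and name Smart-Seq2, which is commonly primed on poly(A) tails, and they do not give the priming. With priming on tails, fewer transcripts and shorter tails cannot be told apart either.

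The 3′ untranslated regions were searched on the sense strand for the cytoplasmic polyadenylation element (TTTTAT or TTTTAAT) within the last 150 bases. It was found in 16 of 54 tested members with an annotated transcript, or 29.63%, close to the 25.28% of 9972 genes tested. The windows printed here come from 6 of the members with at least 50 FPKM in WT GV oocytes. They are shown because the element was present both in members with small changes in WT by MII (Med10, Med30 and Med31) and in Polr2k, the member with the largest drop. Each window gives 30 bases of the mm9 genome, 5′ to 3′ on the transcribed strand, with the element in capitals.
Med10 (chr13:69954875-69954904, plus strand): gagaaaactcggTTTTATagttacattttc
Med21 (chr6:146599016-146599045, plus strand): cattatgccattTTTTATctgactagaatt
Med30 (chr15:52561876-52561905, plus strand): TAATactgtgggTTTTATgaaagattattg
Med31 (chr11:72025235-72025264, minus strand): agttggcaaattTTTTATtaataaattatt
Polr2f (chr15:78982150-78982179, plus strand): tctctgtgcccgTTTTATatgtgtaaataa
Polr2k (chr15:36106654-36106683, plus strand): aatacaattgtaTTTTAATactttgtataa
In Med30 the leading capitals are the end of another copy that starts upstream of the window. No copy was found in the last 150 bases of Med7, Med8 or Polr2i, which says only that these letters were not there. In WT the median log2 change at MII relative to GV was -1.82 over the 16 members with the element and -2.28 over the 38 without it, and over all genes it was -1.09 and -1.51. The Pumilio motif TGTANATA, searched on the sense strand over the whole 3′ untranslated region, was found in 31.48% of members and 22.35% of genes, without a test.

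In WT GV oocytes 18 members had at least 100 FPKM, 17 had 10 to 100, 18 had 1 to 10 and 5 had less than 1. Polr2d and Polr2j were among the most abundant. Polr2d, a subunit of the RNA polymerase II stalk, had 935 and 1126 FPKM in Cnot6l-/- GV oocytes, 966 and 1373 FPKM in those labelled Btg4-/-, and 995 and 1182 FPKM in WT. Polr2j, which pairs with Polr2c in the assembly platform of the enzyme, had 972 and 1021 FPKM in Cnot6l-/-, 862 and 1087 FPKM in those labelled Btg4-/-, and 970 and 928 FPKM in WT at GV. For Polr2d the ranges of the genotypes overlapped at this stage. For Polr2j the Cnot6l-/- libraries lay just above those of WT and within the range of those labelled Btg4-/-. Many of the large catalytic and kinase-module subunits lay at the other end. Across the 54 members with an annotated transcript, log2 transcript length and log2 WT GV level had a Pearson r of -0.72 and a Spearman rho of -0.72. This is a description across genes of the same libraries, and FPKM already divide by length.

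**Figure D1:**
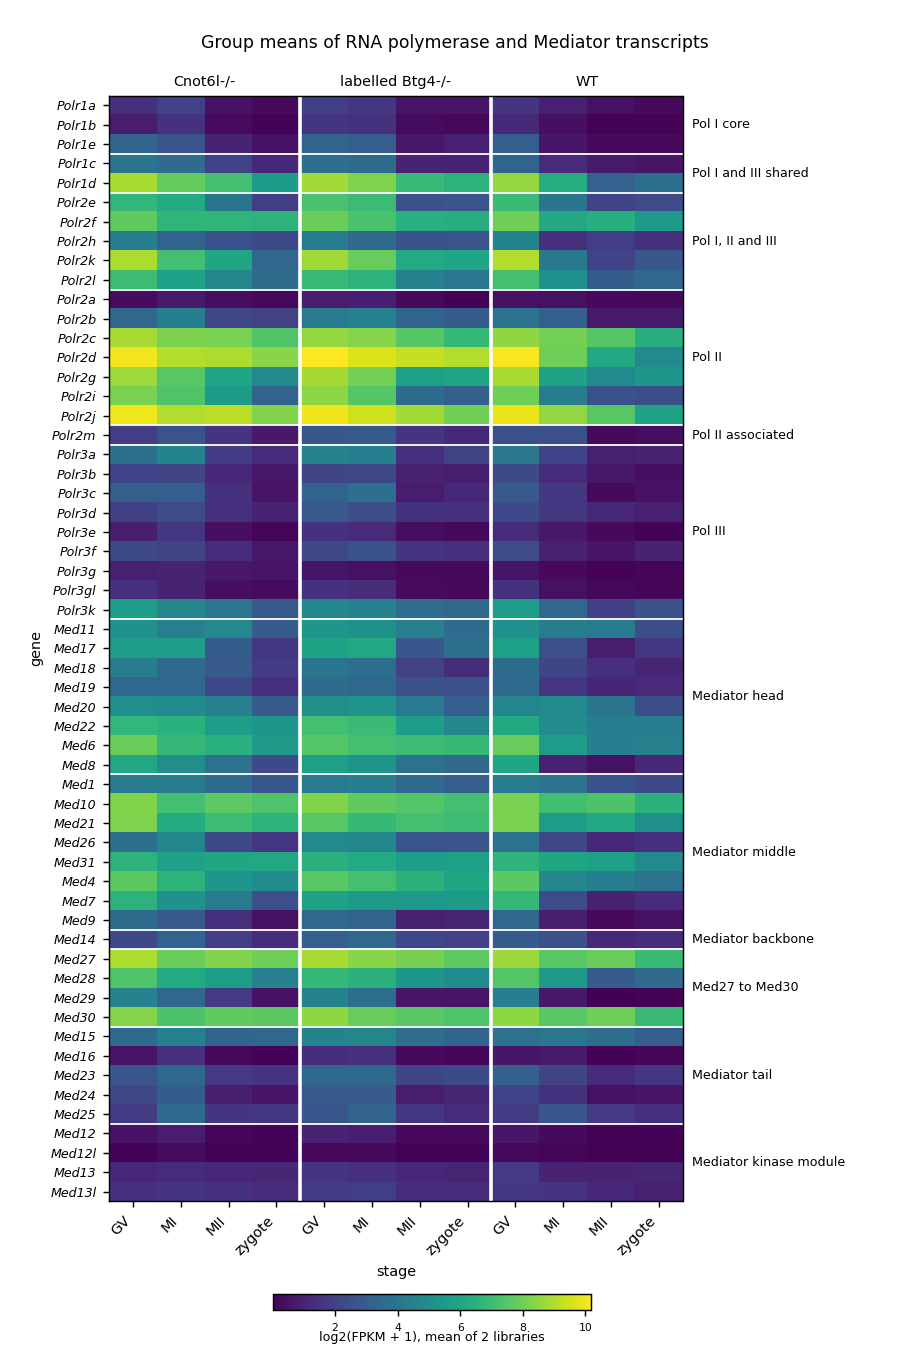
Group means of 57 polymerase and Mediator transcripts, as the log2 of FPKM + 1, with 1 row per gene ordered by complex and 1 column per stage within each genotype. Small subunits such as Polr2d, Polr2j and Med27 are bright at GV, and the WT columns darken more by MII than the knockout columns for genes such as Polr2k, Med7 and Med8.

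In WT oocytes 42 of the 56 members were already called lower at MI than at GV in the values as deposited, against 65.1% of all genes tested. They included members of each polymerase and of the head, middle and tail of Mediator, and 14 members were not called, among them 4 of 5 tail members. The median log2 change was -1.26 over the members and -0.95 over all genes. After scaling, 9 of 53 members were called higher and 19 lower, against 15.1% and 30.5% of the 9866 genes then tested, and the median over all genes was -0.16. The 19 were called lower under both treatments of the data. They included Polr2e, Polr2h, Polr2k and Polr2l, which are shared by the 3 enzymes, Polr1c and Polr1d, which are shared by polymerases I and III, and Med4, Med7, Med8, Med17 and Med29.

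Med8, a head subunit, had 1.22 and 0.69 FPKM at MI, against 69.1 and 61.7 FPKM at GV in WT. It fell by 5.10 ± 0.30 on the log2 scale (SE, limma adjusted p = 8.91e-10), which was -4.14 relative to the median gene. Polr2k had 19.6 and 13.9 FPKM at MI, against 686 and 345 FPKM at GV. It fell by 4.8 ± 0.58 (limma adjusted p = 1.79e-06). In both genes each MI library lay far below each GV library. Med7, a middle subunit, fell by 4.34 and Polr2i, which contributes to the fidelity of RNA polymerase II, by 3.67. At the other end Med10, Med30, Med11 and Polr2b were called lower by 1.07, 0.91, 0.87 and 0.74, but after scaling each changed sign, to 0.19, 0.35, 0.34 and 0.39. Each of these 4 calls was also lost when WT GV library 1 or MI library 3 was left out, those of Med30 and Med11 without GV library 2, and that of Polr2b without MI library 2. Med25, a tail subunit, had 6.66 and 4.89 FPKM at MI and 2.44 and 2.56 FPKM at GV, a difference of 0.94 that was not called as deposited (limma adjusted p = 0.0624) and was 1.8 and called after scaling (limma adjusted p = 0.016).

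By MII 50 of the 56 members were called lower than at GV in WT, against 83.4% of all genes. The members' median of -2.08 lay below the all-gene median of -1.37. After scaling 9 of 53 were called higher and 28 lower, against 14.8% and 43.1% of genes, and the all-gene median was -0.37. The 28 were called lower both ways, and Med10, Med11, Med20, Med27 and Polr2c were called lower as deposited and higher after scaling. The median member kept 11.9% of its GV level at MII, and 26 of 56 kept under 10%. These shares were not computed gene by gene over all genes, so they do not set the members apart.

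Polr2k, a zinc-binding subunit shared by all 3 polymerases, had 3.37 and 2.93 FPKM in WT MII oocytes, against 686 and 345 FPKM at GV. It fell by 6.88 ± 0.58 (limma adjusted p = 1.05e-08), which was -5.51 relative to the median gene. Polr1d, shared by polymerases I and III, had 8.31 and 8.18 FPKM at MII, against 382 and 390 FPKM at GV. The drop was 5.39 ± 0.33 for Polr1d (limma adjusted p = 1.88e-10). Both genes were at a few FPKM in each MII library, while other subunits of the same enzymes stayed abundant. Polr2c had 167 and 199 FPKM at MII, against 364 and 357 FPKM at GV, a change of -0.98 ± 0.30 as deposited (limma adjusted p = 0.00616) and of 0.95 after scaling. Polr2e and Polr2l, also shared by the 3 enzymes, fell by 4.82 and 4.13, and Polr2f, likewise shared, by 1.65 as deposited with 0.27 after scaling. The stalk partners Polr2d and Polr2g fell by 3.96 and 4.0.

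In Mediator the head subunits Med8 and Med17 fell by 5.58 and 4.97 at MII in WT, and the middle subunits Med7 and Med4 by 5.77 and 3.33. Med7 had 1.36 and 0.57 FPKM at MII, against 145.9 and 73.8 FPKM at GV. Med29 had 0.03 and 0 FPKM at MII, against 22.5 and 16.6 FPKM at GV, and was lower by 4.32. Each of these genes had its MII libraries far below its GV libraries. Within the same modules Med10, Med27 and Med30 stayed high: Med27 had 191 and 279 FPKM at MII, against 427 and 381 FPKM at GV, and Med30 had 194 and 292 FPKM, against 374 and 336 FPKM. The change of Med27 was -0.80 as deposited (limma adjusted p = 0.0256) and 1.13 after scaling. Those of Med10 and Med20 were -0.81 and -0.79 as deposited, with 1.12 and 1.05 after scaling. The calls of Med10 and Med27 were lost without WT GV library 1 or MII library 1, that of Med10 also without GV library 2, and that of Med20 without WT MII library 2. Med13, Med13l, Med15, Med25, Med30 and Med31 were not called as deposited. Of these Med13 lay at -0.56, was 0.57 after scaling and 0.085 without WT GV library 1, and was called at -1.21 without WT GV library 2.

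Between MII oocytes and zygotes few members differed in WT. The MII oocytes had been cultured for 16 h and the zygotes were collected 24 h after hCG. Stage and this difference in handling cannot be told apart. Of the 56, 4 were called lower, against 3.22% of genes, and the medians were -0.01 over the members and -0.04 over all genes. Med11, a head subunit, had 6.74 and 2.17 FPKM in zygotes, against 16.4 and 17.8 FPKM at MII, a drop of 1.87 ± 0.33 (limma adjusted p = 0.00338). Polr2j had 60.7 and 59.0 FPKM in zygotes, against 137.5 and 236 FPKM at MII, a drop of 1.57 ± 0.34 (limma adjusted p = 0.0134). Med20 fell by 1.47 and Polr2c by 1.10. In all 4 genes both zygote libraries lay below both MII libraries. The count was 1 without WT MII library 2, which ended the calls of Med11 and Polr2j, and 2 without zygote library 1; only Med20 was called in each fit. After scaling 7 of 53 members were called higher and 3 lower, against 15% and 4.83% of genes. Polr2d lay at 31.1 and 23.0 FPKM in zygotes and 56.02 and 84.3 FPKM at MII, which was not called (limma adjusted p = 0.0524).

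In Cnot6l-/- oocytes many of these transcripts were also lower at MII than at GV. Of the 56 members 38 were called lower at MII than at GV, against 59.9% of genes, with medians of -1.09 over the members and -0.82 over all genes. The median member kept 36.1% of its GV level in Cnot6l-/- MII oocytes, and 0 of 56 kept under 10%, again without a count over all genes. Polr2k had 70.1 and 55.1 FPKM at MII, against 527 and 461 FPKM at GV, a drop of 2.97 ± 0.58 (limma adjusted p = 0.000324). Med29, Polr2e and Polr2g fell by 2.82, 2.72 and 2.68. Among the smallest called changes were those of Polr2d, Med22, Polr2f and Polr2j, of -1.10, -1.07, -1.07 and -0.84, which each lost the call without Cnot6l-/- GV library 2. Polr2d, Polr2f and Polr2j also lost it without MII library 1, Polr2f and Polr2j without GV library 1, and Polr2j without MII library 2, and Polr2j was 0.19 after scaling. After scaling 16 of 53 members were called, all lower, against 23.4% of genes lower and 2.38% higher.

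In oocytes labelled Btg4-/- 47 of the 56 members were called lower at MII than at GV, against 75.3% of genes, with medians of -1.20 over the members and -1.04 over all genes. The median member kept 33.7% of its GV level, and 9 of 56 kept under 10%, again without a count over all genes. Polr2i had 8.4 and 13.8 FPKM at MII, against 287 and 415 FPKM at GV, a drop of 4.87 ± 0.41 (limma adjusted p = 1.85e-08). Polr2e had 4.04 and 5.96 FPKM at MII, against 137.5 and 169 FPKM at GV, a drop of 4.70 ± 0.33 (limma adjusted p = 2.81e-09). At MII the Polr2e values overlapped those of WT, and both Polr2i values lay above both WT values of 3.58 and 6.44 FPKM. Med29 and Med17 fell by 3.92 and 3.13. By contrast Med7 had 66.0 and 22.2 FPKM at MII and 42.4 and 74.0 FPKM at GV in these libraries, a difference of -0.53 that was not called (limma adjusted p = 0.44). Med20, Polr2b, Med1 and Med27 were called lower by 0.88, 0.87, 0.83 and 0.74 as deposited, changed sign after scaling (0.31, 0.27, 0.32 and 0.50), and lost the call without MII library 2 labelled Btg4-/-. Calls were also lost without GV library 1 (Polr2b, Med1), GV library 2 (Med1, Med27) or MII library 1 (Med27) of the same label. After scaling 1 of 53 was called higher and 21 lower, against 1.62% and 29.7% of genes.

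At GV, before maturation began, the genotypes differed in few members. In Cnot6l-/- GV oocytes 1 of 56 was called lower than in WT, against 3.02% of genes: Polr2m, which binds RNA polymerase II, had 2.44 and 2.84 FPKM in Cnot6l-/- and 5.29 and 4.09 FPKM in WT, a log2 difference of -0.64 ± 0.19 (limma adjusted p = 0.0369). In GV oocytes labelled Btg4-/- 1 of 56 was called higher, against 6.1% of genes: the tail subunit Med16 had 2.08 and 0.88 FPKM there and 0.7 and 0.43 FPKM in WT, a difference of 0.63 ± 0.18 (limma adjusted p = 0.0452). Med16 passed the filter through knockout groups only, with a mean of at most 0.685 FPKM in a WT group. This call therefore does not count as support for a difference. At an unadjusted p under 0.05 the counts were 7 and 8. The Cnot6l-/- count was 0 without WT GV library 1 or Cnot6l-/- GV library 1 and 3 without WT GV library 2. The count for libraries labelled Btg4-/- was 0 without WT GV library 2 or library 1 labelled Btg4-/-, and 4 without library 2 labelled Btg4-/-. After scaling both counts were 0, against 5.49% of genes higher and 2.06% lower in Cnot6l-/-, and 1.02% and 0.74% in libraries labelled Btg4-/-.

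At MI the knockout libraries held more of most of these transcripts than WT. In Cnot6l-/- 37 of 56 members were called higher, against 60.3% of genes, with a median of 1.07 over the members and 0.87 over all genes. In libraries labelled Btg4-/- 42 of 56 were called higher, against 68.7% of genes, with medians of 1.18 and 0.99. Med12, Med16 and Polr3g reached a mean of 1 FPKM in knockout groups only. They were tested here and in the later comparisons of a knockout with WT, where any call of theirs does not count as support. Both comparisons use the same WT libraries, so they are given side by side and not set against each other. After scaling 21 of 53 members were called higher and 8 lower in Cnot6l-/-, against 35.8% and 11% of genes. The scaled counts were 19 higher and 5 lower in libraries labelled Btg4-/-, against 32.4% and 9.76% of genes.

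Med8 had 31.4 and 32.9 FPKM in Cnot6l-/- MI oocytes, 38.7 and 37.6 FPKM in those labelled Btg4-/-, and 1.22 and 0.69 FPKM in WT. It was higher by 4.09 ± 0.30 in Cnot6l-/- (limma adjusted p = 1.09e-08) and by 4.34 ± 0.30 in libraries labelled Btg4-/- (limma adjusted p = 4.52e-09). Med17, also of the head, had 51.9 and 52.3 FPKM in Cnot6l-/-, 69.0 and 71.7 FPKM in those labelled Btg4-/-, and 5.48 and 3.88 FPKM in WT. The WT libraries of both genes lay below all 4 knockout libraries. Polr2i had 167 and 171 FPKM in Cnot6l-/-, 167 and 195 FPKM in those labelled Btg4-/-, and 20.4 and 16.6 FPKM in WT, with differences of 3.13 and 3.22. Polr2k was higher by 3.0 and 3.67. The catalytic subunit of RNA polymerase III, Polr3a, had 19.6 and 27.2 FPKM in Cnot6l-/-, 20.5 and 20.6 FPKM in those labelled Btg4-/-, and 3.15 and 3.27 FPKM in WT, with differences of 2.52 and 2.36.

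Smaller differences at MI depended on the data treatment. In libraries labelled Btg4-/- Med27, Med11, Polr2j and Polr2f were called higher by 0.78, 0.82, 0.96 and 1.11 as deposited but lay at -0.43, -0.35, -0.26 and -0.10 after scaling, and each call was lost without WT MI library 3 or either MI library labelled Btg4-/-. In Cnot6l-/- the calls of Polr2d (1.09) and Med6 (1.20) were lost without the same WT library or Cnot6l-/- MI library 2, and that of Med6 also without library 3. Those of Polr2b (1.34) and Med18 (1.38) were kept in each fit without 1 library but were lost after scaling. Med10, Med30 and Med31 were not called in either knockout at MI as deposited; after scaling they lay at -0.89, -1.17 and -1.09 in Cnot6l-/-, all called lower, and Med30 was called lower in libraries labelled Btg4-/- (-0.93). Med30 had 170 and 151 FPKM in Cnot6l-/-, 216 and 242 FPKM in libraries labelled Btg4-/-, and 222 and 159 FPKM in WT, and the WT range overlapped that of each knockout.

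At MII 32 of 56 members were called higher in Cnot6l-/- than in WT, against 44.3% of genes, with medians of 0.86 over the members and 0.56 over all genes. In MII oocytes labelled Btg4-/- 21 of 56 were called higher, against 28.3% of genes, with medians of 0.62 and 0.38. After scaling 22 of 53 were higher and 1 lower in Cnot6l-/-, and 15 higher and 1 lower in libraries labelled Btg4-/-, with scaled all-gene medians of 0.29 and 0.14. The shares of all genes then called were 34.3% higher and 8.65% lower in Cnot6l-/-, and 21.8% higher and 6.47% lower in libraries labelled Btg4-/-. The 22 and the 15 were called higher with either treatment.

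Among subunits shared between polymerases, Polr1d had 118 and 166 FPKM in Cnot6l-/- MII oocytes, 114 and 124 FPKM in those labelled Btg4-/-, and 8.31 and 8.18 FPKM in WT. The differences were 3.93 ± 0.33 (limma adjusted p = 1.22e-07) and 3.70 ± 0.33 (limma adjusted p = 5.89e-07), which lay 3.37 and 3.32 above the median gene. Polr2k had 70.1 and 55.1 FPKM in Cnot6l-/-, 96.5 and 52.9 FPKM in those labelled Btg4-/-, and 3.37 and 2.93 FPKM in WT. For both subunits the lowest knockout library was over the highest WT library. Polr2k differed by 3.93 ± 0.58 (limma adjusted p = 3.62e-05) and 4.13 ± 0.58 (limma adjusted p = 4.89e-05). Polr2e had 14.1 and 15.6 FPKM in Cnot6l-/-, 4.04 and 5.96 FPKM in those labelled Btg4-/-, and 2.71 and 4.1 FPKM in WT. It was called higher in Cnot6l-/- (1.86, limma adjusted p = 0.000219), and was not called in libraries labelled Btg4-/- (0.45 as deposited, -0.14 after scaling, limma adjusted p = 0.366). Whether the Cnot6l-/- libraries differ from those labelled Btg4-/- was not tested.

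Among subunits of RNA polymerase II alone, Polr2d had 386 and 593 FPKM in Cnot6l-/- MII oocytes, 626 and 618 FPKM in those labelled Btg4-/-, and 56.02 and 84.3 FPKM in WT. It was higher by 2.78 ± 0.37 (limma adjusted p = 1.31e-05) and 3.16 ± 0.37 (limma adjusted p = 8.47e-06). Polr2i had 30.7 and 62.4 FPKM in Cnot6l-/-, 8.4 and 13.8 FPKM in those labelled Btg4-/-, and 3.58 and 6.44 FPKM in WT. Polr2i was called higher in Cnot6l-/- by 2.94 (limma adjusted p = 1.86e-05), while the difference of 1.02 in libraries labelled Btg4-/- was not called (limma adjusted p = 0.072). Polr2g was called in Cnot6l-/- (1.15, limma adjusted p = 0.0301), a call that was lost when any of the 4 libraries compared was left out. Polr2j was higher by 1.62 in Cnot6l-/- and by 1.29 in libraries labelled Btg4-/-, the second lost without WT MII library 1 or MII library 1 labelled Btg4-/-.

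In Mediator, Med7 had 24.8 and 8.83 FPKM in Cnot6l-/- MII oocytes, 66.0 and 22.2 FPKM in those labelled Btg4-/-, and 1.36 and 0.57 FPKM in WT. Med7 differed by 3.05 ± 0.64 (limma adjusted p = 0.000929) and 4.36 ± 0.64 (limma adjusted p = 7.42e-05). Med8 had 14.9 and 11.03 FPKM in Cnot6l-/-, 16.9 and 9.99 FPKM in those labelled Btg4-/-, and 0.34 and 0.43 FPKM in WT. The WT libraries of both genes were at about 1 FPKM or less, under every knockout library. Med8 differed by 3.32 in Cnot6l-/- and by 3.34 in libraries labelled Btg4-/-. Smaller calls were less firm: Med1 (0.96) and Med4 (1.05) in Cnot6l-/- lost theirs without Cnot6l-/- MII library 1, and Med1 also without WT MII library 2. Med1 (0.84) in libraries labelled Btg4-/- lost its call without either WT library or library 1 labelled Btg4-/-. Med22 was called in both (1.27 and 1.28), the second lost without WT MII library 1, and Polr2l, shared by the 3 polymerases, was called at 1.46 in libraries labelled Btg4-/-, lost without library 1 labelled Btg4-/-. Med30 was not called at MII in either as deposited (limma adjusted p = 0.711 and 0.59), was called lower in both after scaling (-1.02 and -1.05), and as deposited neither was any of the 3 kinase-module members tested.

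**Figure D2:**
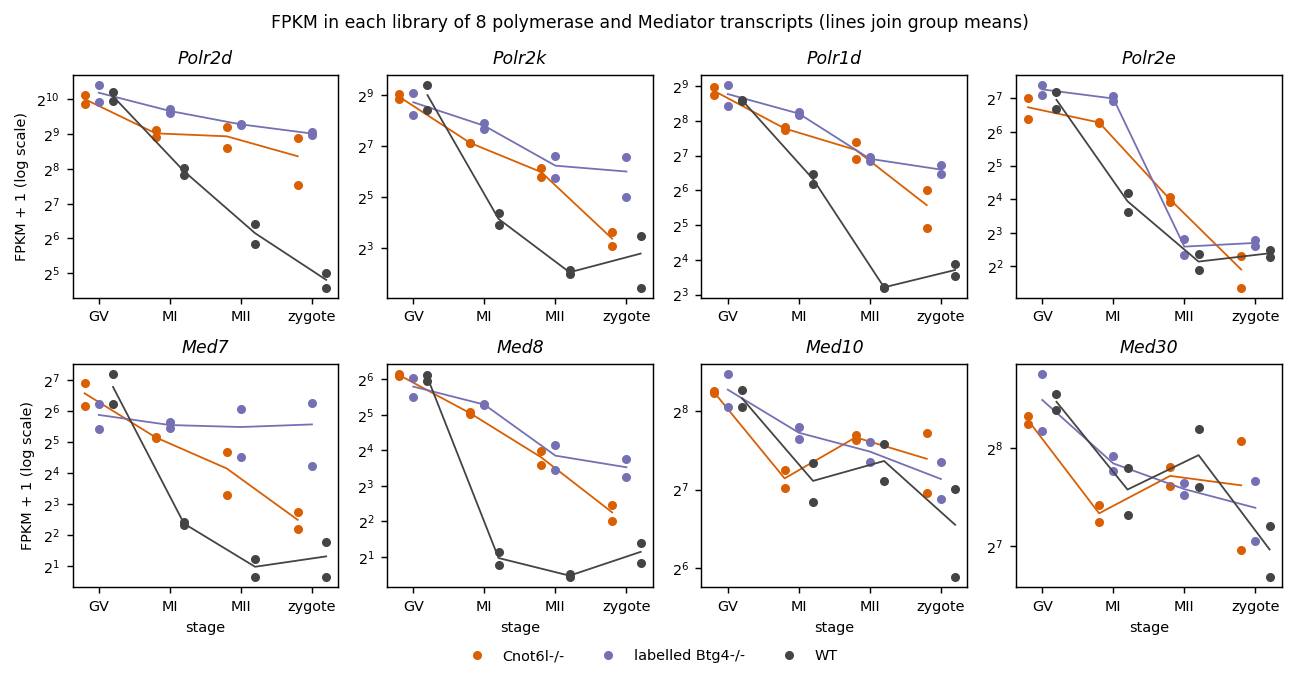
FPKM + 1 of 8 members in every library, on a log axis, by stage and genotype, with 1 point per library and a line through the mean of the 2 libraries of each group. Polr2d, Polr2k, Polr1d, Med7 and Med8 separate at MI and MII, with the WT points lowest. The Polr2e points labelled Btg4-/- overlap those of WT at MII, and in Med30 the WT points overlap those of each knockout at MI.

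In zygotes the differences were fewer in Cnot6l-/-. There 7 of 56 members were called higher than in WT, against 8% of genes, with medians of 0.35 over the members and 0.18 over all genes. After scaling 6 of 53 were called higher and 1 lower, against 7.99% and 7.89% of genes. In zygotes labelled Btg4-/- 21 of 56 were called higher, against 21.5% of genes, with medians of 0.64 and 0.38, and after scaling 13 of 53 were called, all higher, against 11.7% of genes higher and 3.02% lower. The Cnot6l-/- count depended on single libraries: it was 11 without WT library 1, 3 without WT library 2, 13 without Cnot6l-/- library 1 and 2 without Cnot6l-/- library 2. The count for zygotes labelled Btg4-/- was 13 without WT library 2 and 12 without library 1 labelled Btg4-/-.

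Polr2d had 185 and 472 FPKM in Cnot6l-/- zygotes, 530 and 505 FPKM in those labelled Btg4-/-, and 31.1 and 23.0 FPKM in WT. It was higher by 3.42 ± 0.37 in Cnot6l-/- (limma adjusted p = 2.06e-05) and by 4.22 ± 0.37 in zygotes labelled Btg4-/- (limma adjusted p = 1.19e-06). Polr2k had 7.46 and 11.3 FPKM in Cnot6l-/- zygotes, 95.9 and 31.2 FPKM in those labelled Btg4-/-, and 10.1 and 1.73 FPKM in WT. The Polr2d libraries did not overlap, whereas the Cnot6l-/- and WT values of Polr2k did. Polr2k was called in zygotes labelled Btg4-/- (3.34, limma adjusted p = 0.000512) and not in Cnot6l-/- (0.89, limma adjusted p = 0.457). Polr2j was called higher in both knockouts, by 2.24 and 2.07. Polr1d was called higher by 1.77 in Cnot6l-/-, a call lost without Cnot6l-/- library 2, and by 2.89 in zygotes labelled Btg4-/-.

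Med7 had 5.65 and 3.6 FPKM in Cnot6l-/- zygotes, 75.8 and 17.8 FPKM in those labelled Btg4-/-, and 2.41 and 0.55 FPKM in WT. The difference of 4.05 ± 0.64 in zygotes labelled Btg4-/- was called (limma adjusted p = 0.000233), and that of 1.27 in Cnot6l-/- was not (limma adjusted p = 0.288). Med4 was called in both, at 1.03 in Cnot6l-/- and 2.17 in zygotes labelled Btg4-/-, and Med21, a middle subunit, at 1.57 and 1.90. In Cnot6l-/- both of these calls were lost without WT library 2 or Cnot6l-/- library 2. In zygotes labelled Btg4-/- the calls of Med21 and Med11 (1.25) were lost without WT library 2 or library 1 labelled Btg4-/-.

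Whether the loss up to MII differed between genotypes was tested as the difference of the 2 changes. The drop was smaller in Cnot6l-/- than in WT for 22 of 56 members, against 24.1% of genes, with medians of 0.83 over the members and 0.56 over all genes. It was smaller in oocytes labelled Btg4-/- than in WT for 13 of 56, against 13.3% of genes, with medians of 0.33 and 0.28. After scaling 11 of 53 were called in Cnot6l-/-, all with the smaller drop, against 15% of genes with a smaller drop and 0.73% with a larger one. In libraries labelled Btg4-/- these values were 12 of 53, 12.3% and 2.37%. Without 1 library the Cnot6l-/- count was 13 (WT GV library 1) or 14 (WT MII library 2, Cnot6l-/- GV library 1 or MII library 1), and the other count was 8 without MII library 1 labelled Btg4-/-.

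Polr2k changed by -2.97 in Cnot6l-/-, by -2.49 in libraries labelled Btg4-/- and by -6.88 in WT. The differences from WT were 3.91 ± 0.82 (limma adjusted p = 0.00209) and 4.39 ± 0.82 (limma adjusted p = 0.00176). Med7 changed by -2.54, -0.53 and -5.77 in the same order of genotypes, with differences of 3.22 ± 0.90 (limma adjusted p = 0.0146) and 5.23 ± 0.90 (limma adjusted p = 0.000961). Both genes kept more of their GV level in either knockout than in WT. The call of Med7 in Cnot6l-/- was lost without WT GV library 1, WT MII library 2, Cnot6l-/- GV library 2 or Cnot6l-/- MII library 1. Polr1d and Med8 differed from WT by 3.67 and 3.25 in Cnot6l-/- and by 3.55 and 3.62 in libraries labelled Btg4-/-. The smallest of the named differences were Med9 (1.09), Polr3a (1.14), Med19 (1.23) and Med29 (1.51) in Cnot6l-/-, and Med19 (1.29), Polr2l (1.71), Med17 (1.83) and Polr2b (2.17) in libraries labelled Btg4-/-. Of these Med9, Med29 and Polr2b kept the call in each fit without 1 library. The others lost it in at least 3 such fits, among them the fit without WT GV library 1. After scaling the calls of Med9 and Polr3a in Cnot6l-/- and of Polr2l in libraries labelled Btg4-/- were lost.

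**Figure D3:**
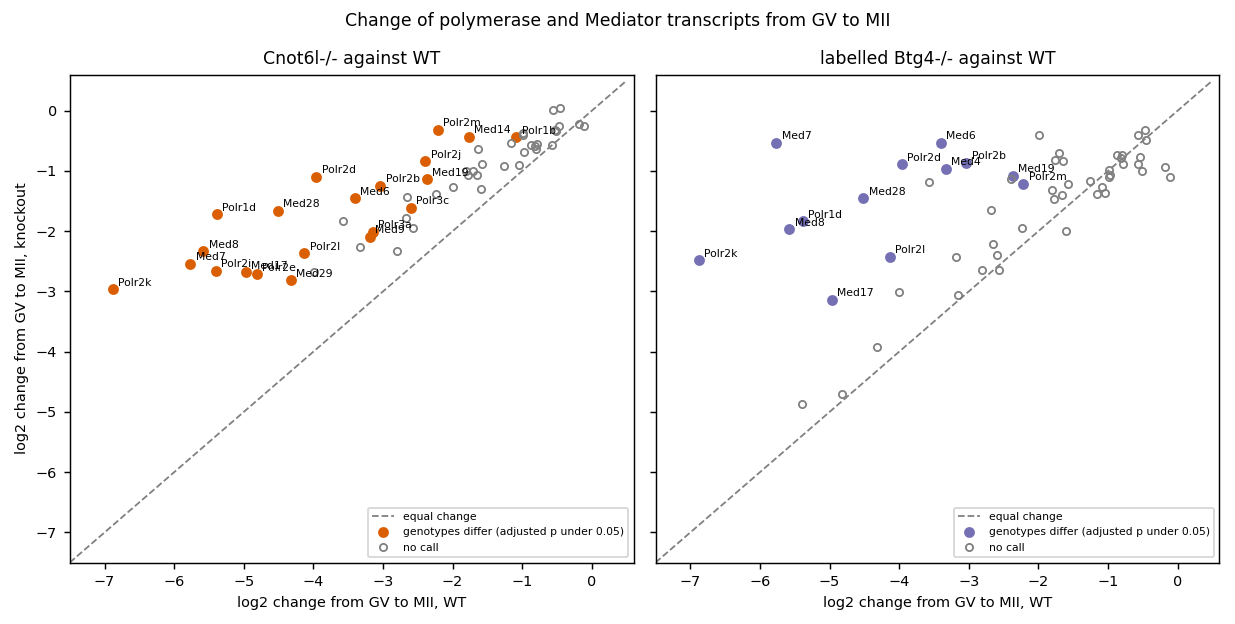
Change from GV to MII of 55 tested members as log2 of FPKM + 1, with WT on the x axis and a knockout on the y axis (left, Cnot6l-/-; right, libraries labelled Btg4-/-). Each point is a gene, the diagonal marks equal change, and coloured points are the 21 and 13 plotted members whose change differed from WT in the limma test; these lie above the diagonal, with Polr2k, Med7, Med8 and Polr1d farthest.

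The FPKM summed over all genes at MII came to 39.4% of the GV sum in Cnot6l-/-, 34.7% in libraries labelled Btg4-/- and 19.9% in WT. The sum over the members came to 42.3%, 40.6% and 20.7% in the same order. By group of genes, at MII the Polr1 genes held 29.9% of their own GV sum in Cnot6l-/-, 26.3% in libraries labelled Btg4-/- and 2.38% in WT. This sum is mostly Polr1d, with 386 of 405 FPKM in WT GV oocytes, which is shared with RNA polymerase III. In WT at MII Polr1d kept 2.14% of its GV level and Polr1a 21.6%. The RNA polymerase II group held 39.8%, 35.2% and 13.7% in the same order, and the RNA polymerase III group 29.4%, 26.0% and 7.77%. Mediator held 49.0%, 53.2% and 35.7%. WT kept the least of each of these sums, as it did of the sum over all genes. Med10, Med27 and Med30, and also Polr2c and Polr2j, each had at least 137 FPKM in both WT MII libraries. These shares carry no test, and a few abundant genes weigh most in them.

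By module, in WT at MII all 8 head members, 7 of 8 middle members and 3 of 5 tail members were called lower, as was 1 of 3 of the kinase module, beside 83.4% of all genes. All 10 RNA polymerase III members, all 6 of the RNA polymerase II members tested and all 5 shared by the 3 enzymes were called lower there. Polr2a was not tested. These counts by module are as deposited. After scaling Polr2c was called higher, and Polr2f, Polr2j, Polr3d, Polr3e, Polr3f, Polr3g and Polr3gl were not called lower. In Cnot6l-/- at MII, relative to WT, 6 of 8 head members, 5 of 8 middle members and 0 of 5 tail members were called higher. For libraries labelled Btg4-/- these counts were 5, 5 and 1. The shares of all genes were 44.3% and 28.3%, and differences between modules were not tested. Of the 10 RNA polymerase III members 6 were called higher in Cnot6l-/- and 1 in libraries labelled Btg4-/-. Polr3g is among the 6, and among the 10 called lower in WT, where its GV mean was 0.51 FPKM. It passed the filter only through Cnot6l-/- MI oocytes, with a mean of 1.04 FPKM. Its call in Cnot6l-/- therefore does not count as support.

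Levels of the catalytic subunits differed widely. Polr1a, the largest subunit of RNA polymerase I, lay between 1.41 and 3.47 FPKM in the 6 GV libraries. At MII it had 0.36 and 0.52 FPKM in Cnot6l-/-, 0.46 and 0.47 FPKM in those labelled Btg4-/-, and 0.35 and 0.47 FPKM in WT, and the 3 pairs overlapped. Polr1b, its partner, had 0.25 and 0.27 FPKM in Cnot6l-/-, 0.25 and 0.22 FPKM in those labelled Btg4-/-, and 0.11 and 0.06 FPKM in WT at MII, with GV values between 0.5 and 2.32 FPKM. Neither was called at MII in either knockout. At MI both were called higher, Polr1a by 1.12 in Cnot6l-/- and 0.76 in libraries labelled Btg4-/-, and Polr1b by 1.04 and 1.01.

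Polr2a lay between 0.05 and 1.04 FPKM over all 24 libraries. At MI it had 0.51 and 0.88 FPKM in Cnot6l-/-, 0.82 and 0.8 FPKM in those labelled Btg4-/-, and 0.55 and 0.27 FPKM in WT. Polr2b, its catalytic partner, was far higher: at MII it had 4.22 and 2.8 FPKM in Cnot6l-/-, 10.9 and 6.8 FPKM in those labelled Btg4-/-, and 0.8 and 0.62 FPKM in WT. The knockout libraries of Polr2b were all above those of WT, with differences of 1.38 ± 0.29 (limma adjusted p = 0.00104) and 2.50 ± 0.29 (limma adjusted p = 8.78e-06). In zygotes Polr2b stayed higher, by 1.30 in Cnot6l-/- and 2.24 in those labelled Btg4-/-. Polr3a had 2.45 and 2.4 FPKM in Cnot6l-/- MII oocytes, 1.86 and 1.54 FPKM in those labelled Btg4-/-, and 0.87 and 0.87 FPKM in WT. It was called higher in Cnot6l-/- (0.87, limma adjusted p = 0.00814) and not in libraries labelled Btg4-/- (0.53, limma adjusted p = 0.126). Polr3b had 1.34 and 1.17 FPKM in Cnot6l-/-, 1.14 and 0.69 FPKM in those labelled Btg4-/-, and 0.67 and 0.51 FPKM in WT at MII. Its call in Cnot6l-/- (0.50, limma adjusted p = 0.0272) was lost when any of the 4 libraries compared was left out.

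Polr3g and Polr3gl are alternative subunits of RNA polymerase III, and the sources used here do not say how the deposited values divide reads between similar genes. Polr3g had 0.78 and 0.38 FPKM in Cnot6l-/- MII oocytes, 0.31 and 0.12 FPKM in those labelled Btg4-/-, and 0.11 and 0.06 FPKM in WT. Polr3gl had 0.39 and 0.33 FPKM in Cnot6l-/-, 0.35 and 0.15 FPKM in those labelled Btg4-/-, and 0.17 and 0.17 FPKM in WT. By FPKM, which divide by length, Polr3gl was the higher of the pair in each of the 6 GV libraries. Polr3g was called higher in Cnot6l-/- at MII (0.53, limma adjusted p = 0.00541), lost without Cnot6l-/- MII library 1, while its own drop in WT (-0.47) was lost without WT GV library 1. Polr3g passed the filter only through Cnot6l-/- MI oocytes, with a mean of 1.04 FPKM. Its call in Cnot6l-/- therefore does not count as support for a difference. Polr3gl was not called at MII in either knockout.

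The kinase module regulates the contact of Mediator with RNA polymerase II, with Med12 and Med13 as its scaffolds. Med12 had 0.14 and 0.16 FPKM in Cnot6l-/- MII oocytes, 0.2 and 0.13 FPKM in those labelled Btg4-/-, and 0.08 and 0.06 FPKM in WT, and Med12l stayed at or under 0.28 FPKM in every library. Med13 had 1.87 and 0.75 FPKM in Cnot6l-/-, 1.97 and 0.66 FPKM in those labelled Btg4-/-, and 0.95 and 1.04 FPKM in WT. Med13l had 1.58 and 1.94 FPKM in Cnot6l-/-, 1.91 and 1.24 FPKM in those labelled Btg4-/-, and 0.87 and 1.59 FPKM in WT. The MII libraries of Med13 and Med13l overlapped between genotypes, and neither gene was called. The kinase Cdk8 and its cyclin Ccnc complete the module. Ccnc had 24.5 and 10.7 FPKM in Cnot6l-/- MII oocytes, 39.3 and 14.6 FPKM in those labelled Btg4-/-, and 3.59 and 1.4 FPKM in WT. Ccnc was higher by 2.38 ± 0.63 (limma adjusted p = 0.00519) and 2.91 ± 0.63 (limma adjusted p = 0.00192). Cdk8 was called in libraries labelled Btg4-/- (1.30, limma adjusted p = 0.0302) and not in Cnot6l-/- (1.02, limma adjusted p = 0.0625). Cdk19, the paralog of Cdk8, did not exceed 0.32 FPKM and was not tested.

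A list of 79 partner genes (general transcription factors, elongation and assembly factors, factors of polymerases I and III, and polymerase subunits with other symbols) was examined beside the members, and 75 were tested, as deposited and not after scaling. In WT 51 were called lower at MI and 68 at MII than at GV, beside 65.1% and 83.4% of all genes, with medians of -1.23 and -1.48. Znrd1, a subunit of RNA polymerase I, had 0 and 0.09 FPKM in WT MII oocytes, against 112.6 and 86.4 FPKM at GV, and fell by 6.58 (limma adjusted p = 1e-11). Supt4h1, an elongation factor subunit, fell by 5.57, while Taf5 and Ccnt2 fell by 1.04 each. At MI 46 partners were called higher in Cnot6l-/- than in WT and 59 in libraries labelled Btg4-/-, beside 60.3% and 68.7% of all genes. At MII the counts were 36 and 23, beside 44.3% and 28.3% of all genes. Rpap2, an assembly factor of RNA polymerase II, was higher at MI by 3.47 and 3.75. Gtf2h5, a TFIIH subunit, had 30.5 and 21.7 FPKM in Cnot6l-/- MII oocytes, 56.3 and 28.5 FPKM in those labelled Btg4-/-, and 1.42 and 1.24 FPKM in WT, with differences of 3.52 and 4.14. In zygotes 6 and 20 partners were called higher, beside 8% and 21.5% of all genes. Among called partners whose higher group averaged 10 FPKM or more, with no overlap of libraries, the smallest differences at MII were those of Taf8 (0.73) and Taf11 (1.13) in Cnot6l-/- and of Cdk8 (1.30) and Gtf2f2 (1.32) in libraries labelled Btg4-/-.

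**Figure D4:**
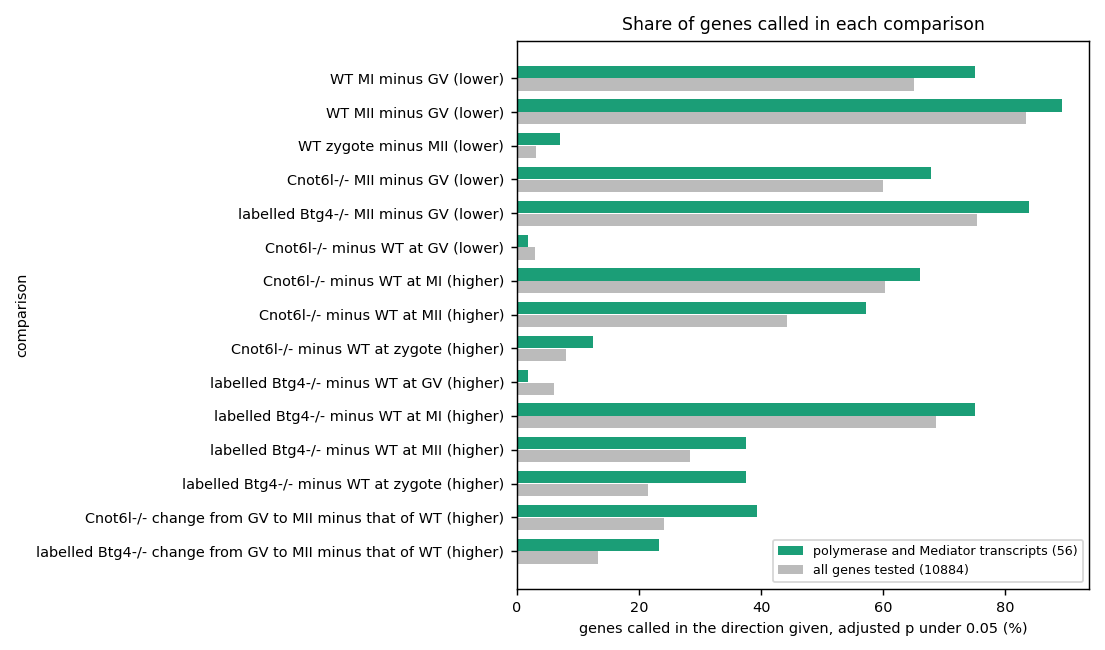
Share of the 56 tested members (coloured bars) and of all 10884 genes tested (grey bars) called in each of the 15 comparisons, in percent, in the direction given beside each comparison. The longest pairs of bars are those for WT MII relative to GV, where 50 members and 83.4% of genes were called lower as deposited, and the shortest are those at GV between genotypes.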

How the data were processed

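RNA-seq was analysed in 24 libraries of 12 groups, each of 2 libraries. The extraction protocol gives 100 oocytes as the source of RNA and the series' design text gives 2 oocytes, and this was not settled. Values are the deposited FPKM, which the authors made with CASAVA 1.8, TopHat2 2.0.11, Bowtie2 2.1.0 and Cufflinks 2.2.1 on mm9, per the submitters' processing notes. The sources used here do not give the scaling between libraries, and depth is unknown. MI columns carry numbers 2 and 3 and were assigned to groups only.

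Genes whose mean reached 1 FPKM in any group (10884) were fitted as log2(FPKM + 1) with limma 3.58.1 in R 4.3.3 over all 12 groups (12 residual degrees of freedom), without a replicate block. P-values were Benjamini-Hochberg adjusted over all genes, with calls under 0.05 in 15 comparisons. All log2 changes are on this scale, which understates changes of low genes. Median-ratio scaling used 3677 genes. The fit was tested on simulated data. Alternatives were a pseudocount of 0.1, no filter, scaling, only the libraries compared, a replicate block, and leaving out each library.

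Members and lists were chosen with earlier results of these data known. The text names, in each comparison, the 4 highest and 4 lowest called members whose higher group averaged 10 FPKM or more, without overlap of libraries, the catalytic subunits and paralogs in every group at MII, and partners by the same rule with 2 each. Any member could be named, and those named beyond this were chosen after their values were seen. Sequences are from the mm9 genome with the matching gene annotation, Python 3.11.15, pandas 2.3.3, numpy 2.4.6 and matplotlib 3.10.9. The values of 1 member are not reported here by name or in the plots of single genes, and it stays in the counts.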

Additional observations from a re-analysis of the deposited data

Results flagged for a closer look

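The change from GV to MII differed between a knockout and WT, by the limma test of that difference itself, in these members; no explanation was tested. All values are knockout change minus WT change on the log2 scale, and all are positive, so the drop was smaller in the knockout. Each value also takes in the difference between genotypes at GV, so it is not a measure of MII levels alone. Cnot6l-/- minus WT at GV was -0.65 for Med14, -0.64 for Polr2m and -0.42 for Polr1b. For Polr1d and Polr3c it was 0.27 and 0.21. Of these 5 only Polr2m was called at GV. In Cnot6l-/- the polymerase genes were Polr1b (0.64), Polr1d (3.67), Polr2b (1.79), Polr2d (2.86), Polr2e (2.1), Polr2i (2.75), Polr2j (1.55), Polr2k (3.91), Polr2l (1.76), Polr2m (1.9), Polr3a (1.14) and Polr3c (0.981). The Mediator genes there were Med6 (1.95), Med7 (3.22), Med8 (3.25), Med9 (1.09), Med14 (1.33), Med17 (2.29), Med19 (1.23), Med28 (2.85) and Med29 (1.51). In libraries labelled Btg4-/- the polymerase genes were Polr1d (3.55), Polr2b (2.17), Polr2d (3.07), Polr2k (4.39), Polr2l (1.71) and Polr2m (1.0). The Mediator genes there were Med4 (2.37), Med6 (2.87), Med7 (5.23), Med8 (3.62), Med17 (1.83), Med19 (1.29) and Med28 (3.06). Both lists use the same WT libraries, so a gene in both is not seen independently in each. After scaling 11 of the members listed for Cnot6l-/- kept the call. Polr1b, Polr2e, Polr2i, Polr2j, Polr2l, Polr3a, Polr3c, Med6, Med9 and Med14 lost it there. Of those listed for libraries labelled Btg4-/-, 12 kept the call after scaling and Polr2l lost it.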

How the results depend on the processing

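The cause of the changes given here was not tested. Median-ratio scaling changed the counts of called members to 28 (WT MI minus GV), 37 (WT MII minus GV), 10 (WT zygote minus MII), 16 (Cnot6l-/- MII minus GV), 22 (labelled Btg4-/- MII minus GV), 24 (labelled Btg4-/- minus WT at MI), 13 (labelled Btg4-/- minus WT in zygotes) and 11 (Cnot6l-/- difference of the change from GV to MII). At GV the count was 0 for Cnot6l-/- with a pseudocount of 0.1, scaling, or only the libraries compared. It was 0 for libraries labelled Btg4-/- with these, without a filter, or with the replicate block, where 7 and 8 members had an unadjusted p under 0.05 in limma as reported. With only the libraries compared, which leaves 2 residual degrees of freedom, the count was also 0 for WT zygote minus MII and for zygotes of either knockout minus WT, where 12, 19 and 28 members had an unadjusted p under 0.05 in limma as reported. For Cnot6l-/- zygotes it was 11 with a pseudocount of 0.1. The other counts stayed within 1.5 times.

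After scaling these log2 changes had the other sign. WT MI minus GV was 0.19 for Med10, 0.35 for Med30, 0.34 for Med11 and 0.39 for Polr2b. WT MII minus GV was 0.95 for Polr2c, 1.12 for Med10, 1.13 for Med27, 1.05 for Med20, 0.57 for Med13 and 0.72 for Med13l. MII minus GV was 0.19 for Polr2j in Cnot6l-/-, and in libraries labelled Btg4-/- 0.31 for Med20, 0.27 for Polr2b, 0.32 for Med1 and 0.50 for Med27. Cnot6l-/- minus WT at MII was -0.27 for Polr1a, -0.34 for Med13 and -0.18 for Med13l. Libraries labelled Btg4-/- minus WT were at -0.43 for Med27, -0.35 for Med11, -0.26 for Polr2j and -0.097 for Polr2f at MI, and at -0.21 for Polr1a, -0.069 for Polr3b, -0.31 for Med13 and -0.24 for Med13l at MII.

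Without 1 library, counts ran from 1 to 3 (WT zygote minus MII), from 0 to 3 and 2 to 13 (Cnot6l-/- minus WT at GV and in zygotes), from 0 to 4 and 12 to 20 (labelled Btg4-/- minus WT at GV and in zygotes), and from 13 to 24 and 8 to 17 for the differences of the change from GV to MII (Cnot6l-/-, labelled Btg4-/-). Signs changed only for members not called. Med13 ran from -1.21 to 0.085 for WT MII minus GV. For Cnot6l-/- minus WT at MII, Polr1a ran from -0.051 to 0.11 and was -0.032 without WT MII library 1, and Med13 ran from -0.19 to 0.53. For libraries labelled Btg4-/- minus WT at MII, Polr1a ran from -0.0049 to 0.12, Polr3gl from -0.025 to 0.21, Med13 from -0.26 to 0.57 and Med13l from -0.021 to 0.45. Of 572 values of named genes without 1 library, 114 lost a call and 8 changed sign.

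Same-numbered libraries deviated together with r between -0.31 and 0.71 (median 0.44), over 0.1 in 28 of 36 pairs of groups. The main fit has no term for this shared deviation, so its p-values do not take it into account. The replicate block adds such a term. With the replicate block, over the 18 libraries that are not MI, counts were 49, 3, 38 and 47 for the stage comparisons (WT MII, WT zygote, Cnot6l-/- MII, labelled Btg4-/- MII). They were 1, 32 and 6 for Cnot6l-/- minus WT, 0, 24 and 21 for libraries labelled Btg4-/- minus WT (GV, MII, zygotes), and 23 and 14 for the differences. With 2 libraries a group and unknown depth, low FPKM limit what could be called. A minimum of 5 FPKM would have left 45 members.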
